A study of Mus musculus with 4 samples.

Results

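Antiviral effectors and restriction factors are the proteins through which interferon blocks viruses inside a cell. Of 10 such genes chosen by symbol, 9 had a probe set annotated with that symbol alone: Bst2, Isg20, Rsad2, Eif2ak2, Apobec3, Rtp4, Xaf1, Trim30a and Parp14, among 19938 genes measured in this way. Isg15, the remaining gene, had 1 probe set, which the annotation shares with a second gene, and it was not used here. The 9 genes carried 10 probe sets, since Apobec3 had 2.

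The samples were mouse embryonic fibroblasts from embryonic day 13.5, of C57BL/6 background, that lack BAX and BAK, the effectors of mitochondrial apoptosis, and had been transformed with SV40. A retroviral vector brought in either p63, a p53-family transcription factor, or GFP as its control, and each line was mock-treated or exposed to etoposide, a topoisomerase II poison, for 6 h. All 4 groups thus share the loss of BAX and BAK, the SV40 transformation and a retroviral vector. The labels disagree on the etoposide concentration, with 10 µg per mL in the treatment protocol and the same number per µl elsewhere, and do not say whether a line is a clone or which p63 isoform was used. The series' design text gives GFP with etoposide as the last sample as well, whereas the fourth sample's own labels give p63, which are followed here. Each group has 1 array, so no spread between replicates, no test and no error can be given.

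Interferons bind receptors that activate the kinases JAK1 and TYK2, which phosphorylate STAT proteins. A complex that holds IRF9 then binds the interferon-stimulated response element (ISRE) in the promoters of many genes, the antiviral effectors among them. Fibroblasts respond strongly to type I interferon and use these proteins as their own antiviral defence. The effectors act at different steps: some degrade or edit nucleic acids, some stop translation, some hold virus particles at the membrane, and others tune the response itself.

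Values are deposited RMA signals (an array summary per probe set) in log2 units, where 1 unit equals 2-fold, the size at which a gene is called higher or lower. A gene was kept where its highest array reached 5.87, the median of all values, and 10698 genes including all 9 effectors were kept. A reading below 5.87 is treated as dim, and a fold that rests on such a reading is written as "at least" the value reached when the reading is set to 5.87. The Trp63 signal was 4.87, 5.59, 8.75 and 9.29 on the arrays of GFP mock, GFP etoposide, p63 mock and p63 etoposide, so both arrays labelled p63 were high. Krt5 and Krt14, epithelial keratin genes that p63 is known to activate, read 9.72 to 10.27 in p63 cells and below 5.87 in GFP cells, and Mdm2, a p53 target, was higher after etoposide by 2.40 and 2.59. Of 10 fibroblast markers, 6 to 7 lay above 5.87 on each array, and Pdgfra, Thy1 and Dcn lay below it on all arrays. Haematopoietic markers reached 5.87 for 0 to 2 of 11 genes (Cd68 and Cd14), with summed log2 signals of 50.6, 54.4, 51.0 and 53.3 on the 4 arrays in the order GFP mock, GFP etoposide, p63 mock and p63 etoposide, which holds for every 4 values below. Cd68 read 6.05, 6.78, 5.20 and 6.87 and Cd14 5.58, 7.28, 4.79 and 6.82, both brighter after etoposide; their part in the results was not tested. The pan-leukocyte gene Ptprc and the plasmacytoid dendritic cell gene Siglech stayed below 5.87 on all arrays. Endothelial markers reached it for 0 of 6. 1 array, that of p63 cells without etoposide, stood apart most. It had 78 genes at least 1 from each other array where the other arrays differed by 0.5 or less. The others had 22 (GFP mock), 1 and 2 such genes. No effector was among the genes that set an array apart. A gene whose other arrays differ by more than 0.5 cannot meet this rule, so their absence says little. Centring arrays on their medians moved the split of all calls from 377 higher and 227 lower to 469 and 165 for etoposide in GFP cells, from 672 and 142 to 406 and 263 for etoposide in p63 cells, and from 259 and 402 to 408 and 202 for p63 in mock-treated cells. For the difference between the etoposide differences it moved the split from 304 and 117 to 84 and 341.

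Promoter sequence was examined because all 9 effectors read highest on the array of mock-treated GFP cells, as did 38.4% of all genes kept. RefSeq windows of 300 bases (GRCm38.p6, from 250 bases before to 50 after an annotated start) were at hand for 7 of the 9 genes, and Rtp4 and Parp14 had none. The core of the ISRE was searched as GAAA, any 2 bases (NN) and GAAA on both strands, so that TTTC, any 2 bases and TTTC on the gene's strand also counts. It was present in a window of 5 of these 7 genes and of 3.39% of the 8613 kept genes that have one, and in 3.44% of all 32851 windows taken singly. Isg20 and Xaf1 had no match in their windows. The stretches that hold the matches are shown because they hold a sequence feature that 5 effectors have in common, on the gene's own strand, 5′ to 3′, with the matched bases in capitals.

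Bst2: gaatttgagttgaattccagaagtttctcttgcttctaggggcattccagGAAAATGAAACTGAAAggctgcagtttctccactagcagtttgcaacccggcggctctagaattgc
Rsad2: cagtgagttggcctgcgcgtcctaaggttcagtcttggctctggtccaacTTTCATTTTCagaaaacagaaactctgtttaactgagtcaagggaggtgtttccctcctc
Trim30a: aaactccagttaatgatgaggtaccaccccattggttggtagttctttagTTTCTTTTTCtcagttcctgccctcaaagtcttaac
Apobec3: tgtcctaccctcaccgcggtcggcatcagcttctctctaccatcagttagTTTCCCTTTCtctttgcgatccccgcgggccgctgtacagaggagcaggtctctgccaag
Eif2ak2: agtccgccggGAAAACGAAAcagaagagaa

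These stretches lie at chr8:71537537-71537652 (minus strand) for Bst2, chr12:26456513-26456622 (minus) for Rsad2, chr7:104465194-104465279 (minus) for Trim30a, chr15:79892218-79892327 (plus) for Apobec3 and chr17:78882535-78882564 (minus) for Eif2ak2. Bst2 held 2 overlapping matches, GAAAATGAAA and GAAACTGAAA, which begin 130 and 124 bases before its start. The matches of Rsad2, Trim30a and Apobec3 begin 120, 36 and 140 bases before a start. That of Eif2ak2 begins at base 19 past its start, so only the site and its nearest bases are shown. A second annotated start of Trim30a has the same 10 letters, TTTCTTTTTC, beginning at base 3 past it, and the second window of Apobec3 has no match. The shorter STAT motif TTCNNNGAA, which reads the same on both strands, was present in windows of Isg20 (TTCTTGGAA), Bst2 (TTCCAGGAA, overlapping the first ISRE match) and Eif2ak2 (TTCCCAGAA), or 3 of 7 genes against 7.87% of kept genes with a window and 8.30% of all windows taken singly. A match describes letters and not bound protein. The ISRE core, held by 3.39% of kept genes, was held by 11.2% of the 329 that were lower by at least 1 in mock-treated p63 cells and by 34.1% of the 41 that were so in etoposide-treated cells, effectors included. For the STAT motif these shares were 10.6% and 12.2%. Among kept genes lower by at least 1 after etoposide, the ISRE core was held by 12.4% of 170 in GFP cells. In p63 cells it was held by 7.14% of 98. The STAT motif was held by 9.41% and 9.18% of these genes. The share of the ISRE core was thus above 3.39% in the etoposide comparisons as well. The array of mock-treated GFP cells enters both the p63 comparison in mock-treated cells and the etoposide comparison in GFP cells. Of all genes kept, 56 were lower by at least 1 in both, so these shares are not independent. They rest on values as deposited, dim ones included. Whether the share differs between comparisons was not tested.

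The comparison of p63 with GFP cells asks what p63 alters in these fibroblasts. The effectors were lower in p63 cells: 8 of 9 were lower by at least 1 in mock-treated cells, and Bst2, Rsad2, Rtp4, Xaf1 and Trim30a were so under both treatments. Rtp4 had the lowest difference of all 10698 genes in mock-treated cells and Trim30a the second lowest, and Bst2 the second lowest in etoposide-treated cells. On every effector the array of mock-treated GFP cells read highest. In bulk RNA, fewer cells that express a gene and less RNA per cell cannot be told apart, and a difference between the p63 and GFP lines other than p63 cannot be told apart from p63.

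Bst2, or tetherin, is a membrane protein that holds budding enveloped viruses, retroviruses among them, on the cell surface. Its signal was 9.90 (mock) and 9.50 (etoposide) in GFP cells, and 6.78 (mock) and 6.38 (etoposide) in p63 cells. Both GFP arrays were high and both p63 arrays low, all above 5.87. The p63 minus GFP difference was -3.12 under each treatment, or 8.71-fold and 8.67-fold lower with p63, the closest match between treatments of any effector.

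Next come the enzymes that act on nucleic acids or on translation. Isg20, an RNA exonuclease, read 7.33, 6.60, 6.16 and 6.02. It stood lower on both p63 arrays. The difference was -1.17 under mock treatment, which fell short of a call at -0.95 with arrays centred, and -0.59 under etoposide. Rsad2, or viperin, a radical SAM enzyme that makes a chain-terminating nucleotide, read 6.76, 5.79, 4.77 and 4.58. Only mock-treated GFP cells lay above 5.87, so Rsad2 was kept through that array alone. Its differences of -1.99 and -1.21 therefore rest on dim readings, and were -0.89 and 0.00 with these raised, below a call under both treatments.

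Eif2ak2 encodes PKR, the kinase that halts translation on binding double-stranded RNA. It read 9.90, 8.93, 8.52 and 8.69, well above 5.87 throughout. The mock-treated GFP array was high and the other 3 lay close together, so the p63 difference was -1.38 in mock-treated cells (2.60-fold lower) and -0.23 in etoposide-treated cells. Apobec3, a cytidine deaminase that restricts mouse retroviruses, read 7.403, 6.48, 6.72 and 6.66, by its brighter probe set. It was the 1 effector not called in any comparison, with p63 differences of -0.68 and 0.18, and the 1 effector whose GFP arrays did not both lie above both p63 arrays. Its dimmer probe set read 5.69, 5.96, 5.79 and 5.97 in the same order of arrays, with p63 differences of 0.10 and 0.00.

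The remaining effectors regulate the response or act less directly. Rtp4, a receptor transporter protein that also limits flavivirus replication, read 10.01, 8.43, 5.04 and 5.72. Both GFP arrays were bright and both p63 arrays dim. The differences were -4.97 and -2.71, at least 17.6-fold lower with p63 under mock treatment and at least 5.90-fold under etoposide. Trim30a, a RING-finger protein that restrains Toll-like receptor signalling, read 8.46, 6.79, 3.67 and 4.56. It has close copies in the genome, and the sources used here do not say whether its probes also detect them. Its differences were -4.79 and -2.23. Set to the filter, these were at least 6.01-fold and at least 1.89-fold, the latter below a call.

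Xaf1 encodes a protein that binds the caspase inhibitor XIAP. It read 8.45, 6.82, 4.68 and 4.91, with differences of -3.78 and -1.91. Both GFP arrays lay above 5.87 and both p63 arrays below it, so p63 cells were at least 6.00-fold lower when mock-treated and at least 1.93-fold lower after etoposide, again short of a call. Parp14, a mono-ADP-ribosyltransferase with macrodomains, read 8.90, 6.53, 5.57 and 5.58. Its difference was -3.33 in mock-treated cells, at least 8.14-fold lower with p63. In etoposide-treated cells it was -0.95, just short of a call, and -1.03, past it, with arrays centred, -1.001 after cyclic loess and -0.66 with dim readings raised.

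**Figure D1:**
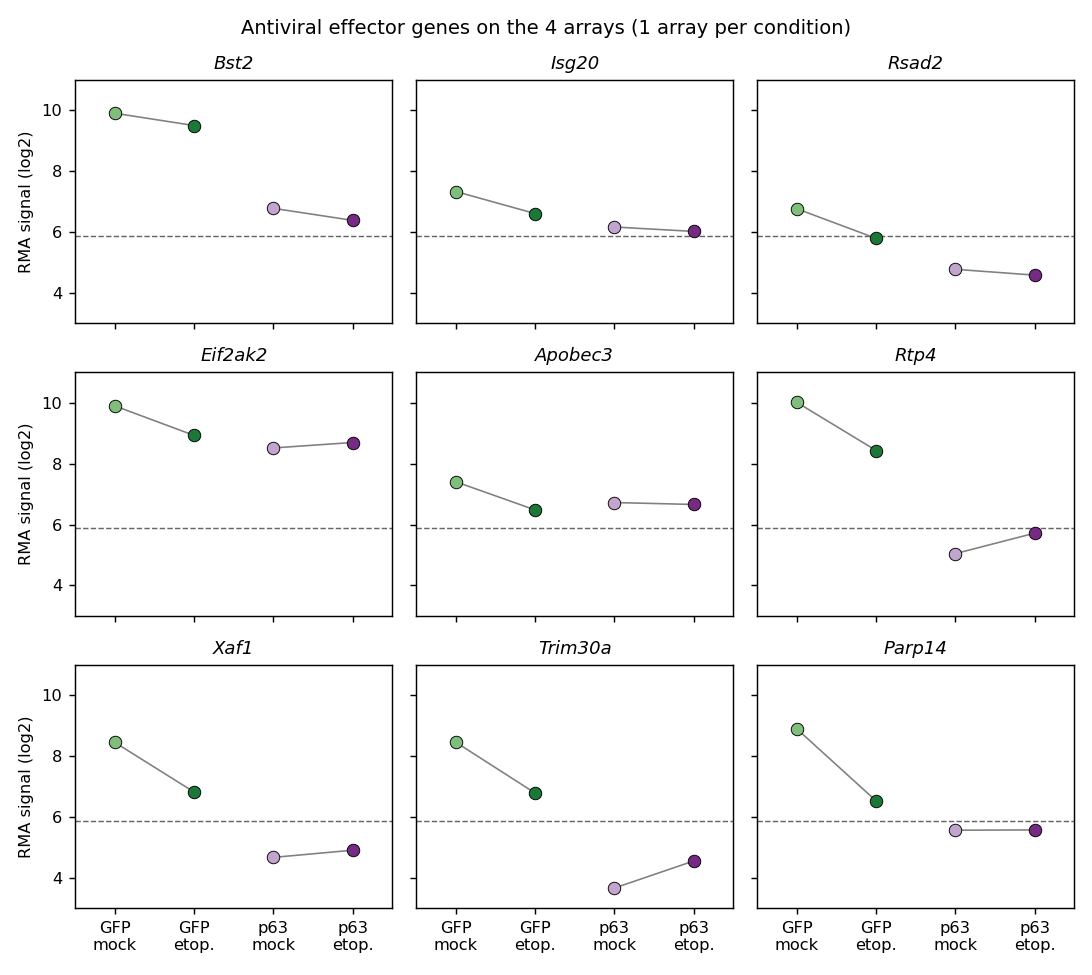
RMA signal (log2) of each antiviral effector on the 4 arrays, 1 point per array; grey lines join mock and etoposide of a line, and the dashed line marks the filter at 5.87. All 9 genes read highest in mock-treated GFP cells, and Rsad2, Rtp4, Xaf1, Trim30a and Parp14 read below the filter on both p63 arrays.

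In counts, 8 of 9 effectors were lower with p63 by at least 1 in mock-treated cells, where 3.76% of all genes kept were. In etoposide-treated cells 5 of 9 were lower, where 0.514% of all genes were, and the same 5 were lower under both treatments, where 0.486% were. The median difference over the effectors was -3.12 under mock treatment and -1.21 under etoposide, against -0.14 and 0.02 over all genes kept. With dim readings raised to the filter, 7 of 9 were lower in mock-treated cells and 2 of 9, Bst2 and Rtp4, in etoposide-treated cells, with medians of -2.58 and -0.66. Of the 10698 genes kept, 334 and 31 were then lower, with medians of -0.12 and 0.02. Both GFP arrays lay above both p63 arrays for 8 of 9 effectors and 21.2% of all genes. The signal spanned at least 2 over the 4 arrays for 6 of 9 effectors and 2.55% of all genes. If the array that stood apart is left out, only the etoposide-treated values of this comparison remain. The same holds if the array of mock-treated GFP cells, on which every effector read highest, is left out.

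**Figure D2:**
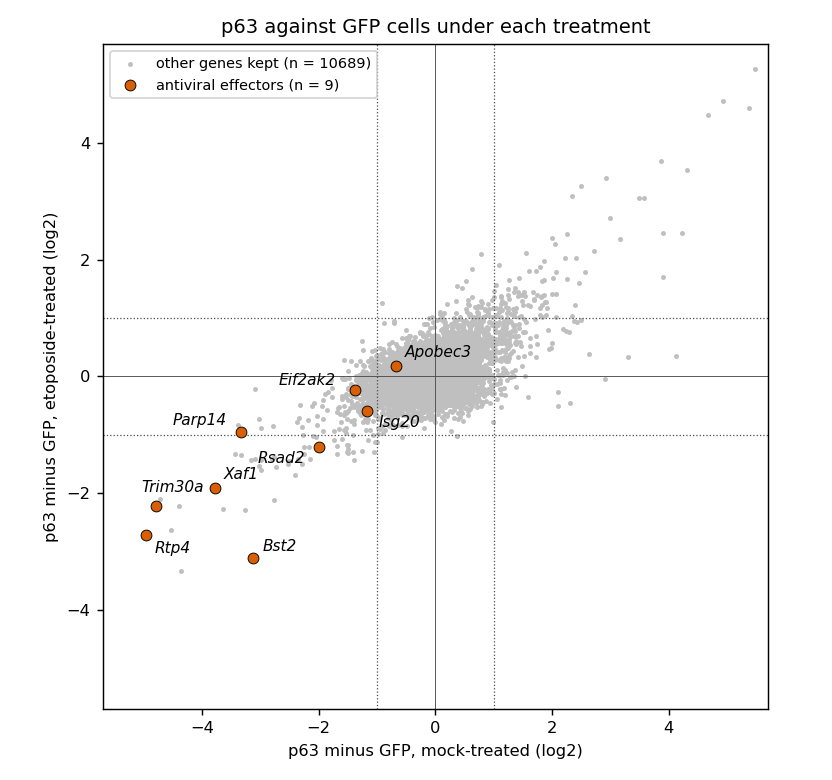
Difference between p63 and GFP cells (log2) in mock-treated cells (x axis) and in etoposide-treated cells (y axis) for the 9 antiviral effectors (orange) and the other genes kept (grey); dotted lines mark differences of 1 in either direction. Rtp4 and Trim30a lie farthest left, at -4.97 and -4.79, and Bst2 lies lowest of the effectors, at -3.12 on both axes.

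**Figure D3:**
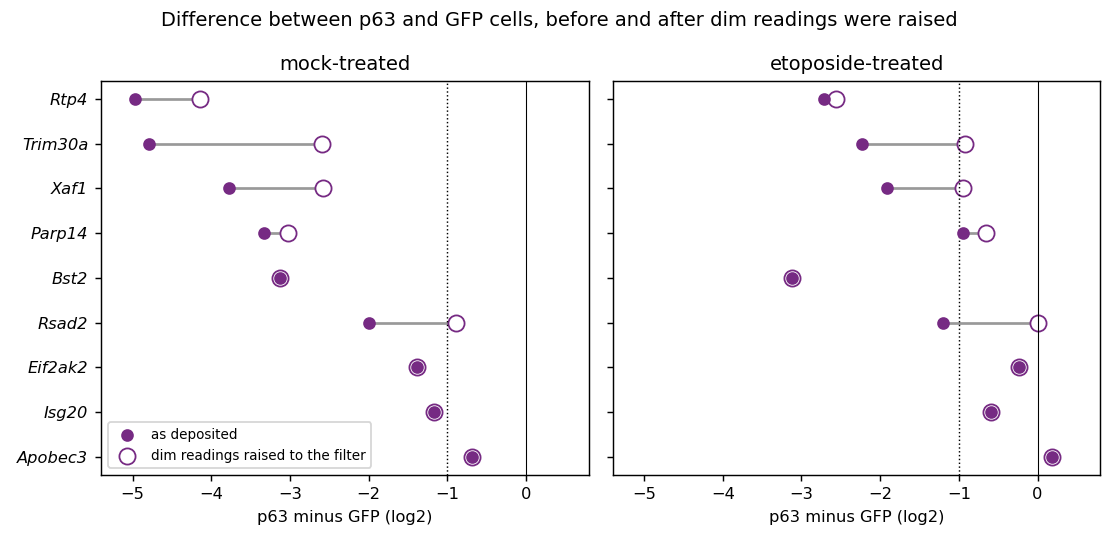
Difference between p63 and GFP cells (log2) for each antiviral effector, as deposited (filled) and with readings below the filter of 5.87 raised to it (open), in mock-treated (left) and etoposide-treated cells (right). The dotted line marks a call at -1, which Bst2 and Rtp4 pass under both treatments and both settings.

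Etoposide was compared with mock treatment in each line, which asks how cells without BAX and BAK respond to DNA damage. In GFP cells all 9 effectors read lower after etoposide, as did 6287 of the 10698 genes kept, and Parp14, Trim30a, Xaf1 and Rtp4 by at least 1. In p63 cells none reached 1 in either direction. The same array of mock-treated GFP cells enters both the etoposide comparison in GFP cells and the p63 comparison in mock-treated cells, so a high reading on it moves both.

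Parp14 had the lowest etoposide difference of the effectors in GFP cells, -2.37 or 5.16-fold lower, the 6th lowest of all genes kept, and stood at 0.01 in p63 cells. Trim30a was lower by 3.18-fold (-1.67), Xaf1 by 3.10-fold (-1.63) and Rtp4 by 2.99-fold (-1.58), and the GFP readings behind these 4 values all lay above 5.87. Short of a call were Rsad2 (-0.97), Eif2ak2 (-0.97), Apobec3 (-0.92), Isg20 (-0.72) and Bst2 (-0.40). The least difference was thus that of Bst2, which stood farthest below GFP of the effectors in etoposide-treated p63 cells.

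In p63 cells Trim30a (0.89) and Rtp4 (0.67) had the highest etoposide differences. Both rest on readings below 5.87 on each p63 array, and with these raised the differences were 0.00. Xaf1 stood at 0.24, Eif2ak2 at 0.18, Apobec3 at -0.06, Isg20 at -0.15, Rsad2 at -0.19 and Bst2 at -0.40. The sign of Eif2ak2 changed to -0.02 and that of Parp14 to -0.19 with arrays centred, and that of Parp14 to -0.01 after cyclic loess. A probe set median changed Apobec3 to 0.06.

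**Figure D4:**
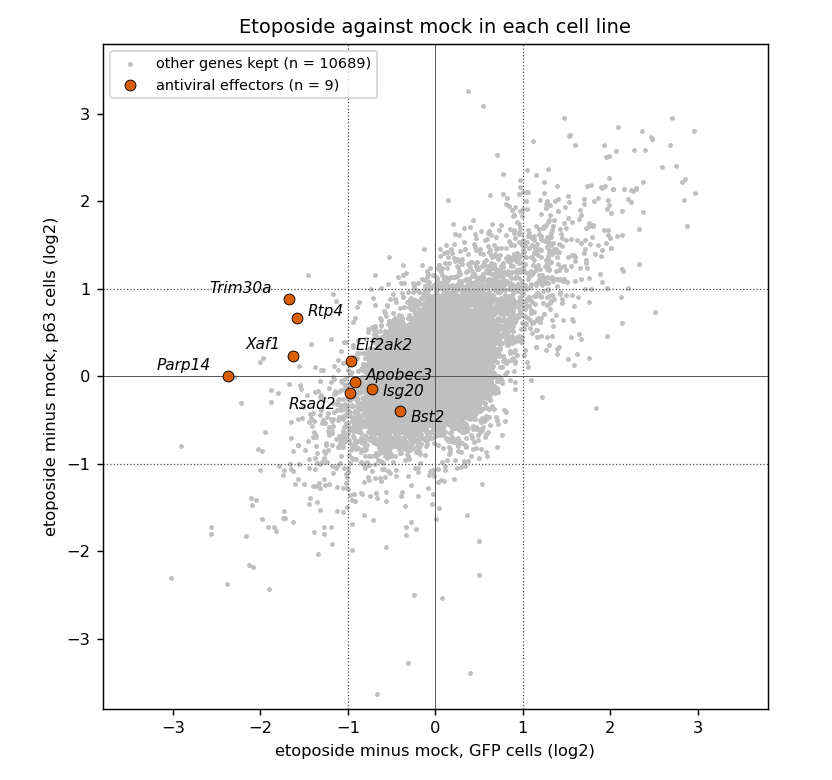
Difference between etoposide and mock treatment (log2) in GFP cells (x axis) and p63 cells (y axis) for the 9 antiviral effectors (orange) and the other genes kept (grey); dotted lines mark differences of 1 in either direction. The effectors lie left of 0 on the x axis, down to -2.37 for Parp14, and between -0.40 and 0.89 on the y axis.

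In counts, 4 of 9 effectors were lower by at least 1 after etoposide in GFP cells, where 2.12% of all genes were. In p63 cells 0 of 9 were called in either direction, where 7.61% of all genes were. The medians were -0.97 in GFP cells and 0.01 in p63 cells, against -0.08 and 0.10 over all genes kept. All 9 effectors read highest on the array of mock-treated GFP cells, as did 38.4% of all genes. If the array that stood apart is left out, only the values of GFP cells remain here. If the array of mock-treated GFP cells is left out, only the values of p63 cells remain.

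Subtracting the etoposide difference of GFP cells from that of p63 cells gave at least 1 for 5 of 9 effectors and for 2.84% of all genes. These were Trim30a (2.56), Parp14 (2.38), Rtp4 (2.25), Xaf1 (1.87) and Eif2ak2 (1.15), and with dim readings raised they stood at 1.67, 2.37, 1.58, 1.63 and 1.15. Eif2ak2 is the 1 gene of these whose readings all lay above 5.87. In Trim30a, Parp14, Rtp4 and Xaf1 both p63 readings were dim, so raising them made them equal. Their raised values only restate the etoposide difference of GFP cells with its sign turned. A gene dim in mock-treated p63 cells could not show a fall there. Apobec3 (0.86), Rsad2 (0.78) and Isg20 (0.58) followed, and Bst2 stood at 0.01. The median was 1.15 against 0.20 over all genes kept. It was 0.85 with arrays centred, against -0.10 over all genes kept, and 0.90 after cyclic loess, against 0.04. Under both of these 8 of 9 effectors were above 0. As deposited all 9 effectors were, as were 7409 of the 10698 genes kept, a share not counted under the alternatives. The difference of the etoposide differences uses all 4 arrays once and has no error.

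The genes that act with or resemble the effectors were read from lists by pathway and family. Beside the counts below, 3.76% of all genes kept were lower by at least 1 with p63 in mock-treated cells. In etoposide-treated cells 0.514% were. Of the ISG15 conjugation genes, which attach or remove ISG15, 3 of 4 were kept, and 2 of these were lower by at least 1 with p63 under each treatment: Ube2l6, the conjugating enzyme (-2.28 and -1.01, the first on a p63 reading of 5.36), and Usp18, the removing protease (-4.36 and -3.34, on p63 readings of 5.31 and 5.28, below 5.87). Herc6, the ligase, stood at -0.85 and -0.38. Uba7, the activating enzyme, read 5.47 to 5.49 on the 4 arrays, below 5.87 on each.

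Of 17 kept relatives of the effectors, 6 were lower with p63 in mock-treated cells and 2 in etoposide-treated cells, with medians of -0.53 and -0.06. Parp12 (-2.25 and -1.21) and Dtx3l, the ubiquitin ligase that partners Parp9 (-2.05 and -1.04), were the relatives lower under both treatments, and Parp9 stood at -2.19 and -0.74. Parp1, the founding member of the Parp family and a DNA damage sensor, stood at -0.38 and -0.09. The other eIF2 kinases beside Eif2ak2 had p63 differences in mock-treated cells of -0.41 (Eif2ak1), 0.51 (Eif2ak3) and -0.53 (Eif2ak4), none of them called. Apobec1, a relative of Apobec3, was higher after etoposide by 2.36 in GFP and 2.81 in p63 cells, where Apobec3 stood at -0.92 and -0.06. Trim12a (-1.93 and -0.74) and Trim12c (-1.89 and -0.31), TRIM proteins like Trim30a, were dim on 3 arrays. Both were kept through the array of mock-treated GFP cells alone, and both count among the relatives lower in mock-treated cells. With dim readings raised they stood at -0.05 and 0.00 and at -0.48 and 0.00, below a call. Xiap, the partner of Xaf1, stood at 0.44 and 0.38.

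Of 18 kept further restriction factors, 9 were lower and 1 was higher with p63 in mock-treated cells (median -1.04), and 3 were lower in etoposide-treated cells (median -0.40). Those lower under both were Lgals3bp, a secreted glycoprotein (-2.53 and -1.503), Trim25, a ubiquitin ligase that acts with RIG-I (-2.16 and -1.21), and Ddx60, a helicase (-3.02 and -1.54). With dim readings raised Trim25 stood at -2.16 and -0.90. Ddx60, kept through the array of mock-treated GFP cells alone, then stood at -0.61 and 0.00, below a call. Helz2 (-2.37 and -0.78, the first -1.87 with a dim p63 reading raised), Adar, an RNA-editing deaminase (-1.65 and -0.52), and Ifitm3, which blocks viral entry (-1.64 and -0.64), were lower in mock-treated cells. Ifitm3 was higher after etoposide in p63 cells, by 1.25.

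Of 12 kept interferon signalling genes, 3 were lower with p63 under mock treatment and 2 under etoposide, with medians of -0.21 and -0.21. Irf7, a factor that amplifies interferon induction, stood at -3.27 and -2.29 (-2.85 and -2.19 with its dim p63 readings raised), Irf9 at -2.41 and -1.69 and Stat2 at -2.33 and -0.72. With p63, the receptor and kinase genes named here were not called. Ifnar1 stood at -0.48 and 0.27, Ifnar2 at -0.32 and -0.08, Jak1 at 0.06 and 0.18, Ifngr2 at 0.04 and 0.12 and Ifngr1 at 0.27 and 0.51. Irf1, a further interferon regulatory factor, stood at -0.47 and -0.30. Ifnb1 read 2.88 to 3.30, below 5.87 on every array. After etoposide in GFP cells Stat2 (-1.80) and Irf9 (-1.38) were lower by at least 1, and in p63 cells they stood at -0.19 and -0.66. Ifngr2, a chain of the interferon gamma receptor, stood at 0.99 in GFP cells and was higher by 1.07 in p63 cells, the 1 gene of this list called higher.

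Among 7 kept fibroblast markers 0 were called in any of the 4 comparisons. All 7 read below 0 after etoposide in GFP cells, as the effectors did, and 6 of 7 in p63 cells, with medians of -0.41 and -0.43. In GFP cells Pdgfrb stood at -0.82, S100a4 at -0.60, Col1a2 at -0.50, Col5a1 at -0.41, Col3a1 at -0.31 and Vim at -0.27. Their part in the effectors' values was not tested.

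**Figure D5:**
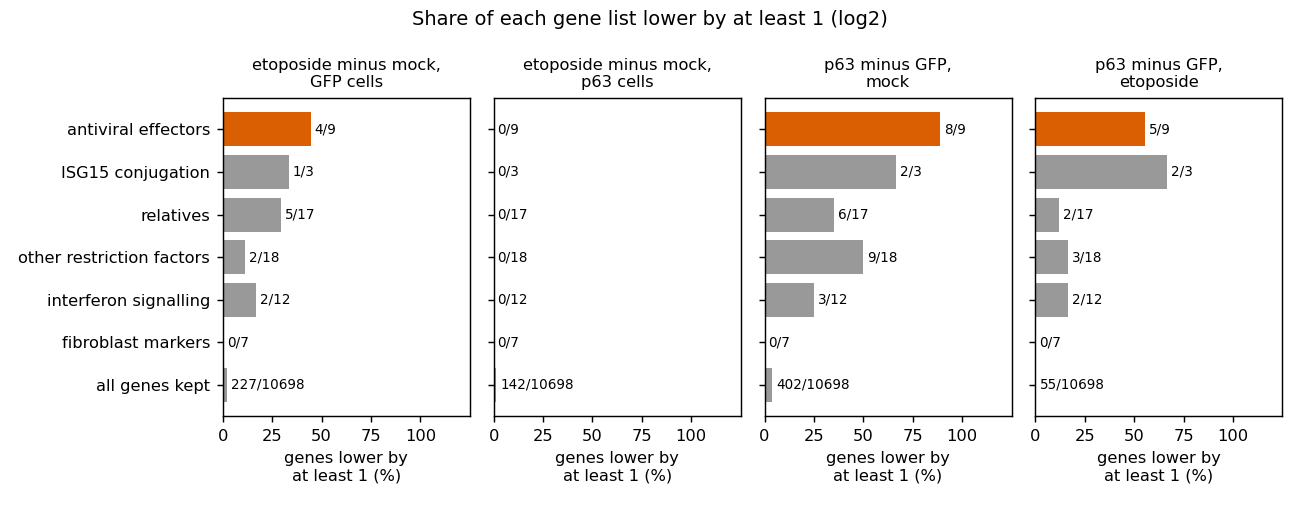
Share of the kept genes of each list that were lower by at least 1 (log2), as a percent (x axis), in each of the 4 comparisons, with the count beside each bar. The antiviral effectors reach 8 of 9 for p63 in mock-treated cells and 0 of 9 for etoposide in p63 cells.

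Position was read from the order of protein-coding genes in RefSeq (GRCm38.p6). Dtx3l, next to Parp14, had low p63 differences as given above, and Hspbap1 on the other side stood at -0.58 and 0.01. Aen, a p53-induced nuclease gene beside Isg20, was higher after etoposide by 0.67 and 1.25, where Isg20 stood at -0.72 and -0.15. Slc13a5 beside Xaf1 was higher after etoposide in GFP cells by 1.40, where Xaf1 stood at -1.63, and stood at 0.25 in p63 cells. Mvb12a beside Bst2 stood at -0.50 and -0.28 with p63, Masp1 beside Rtp4 at -0.99 and -0.99, Gpatch11 beside Eif2ak2 at 0.14 and 0.20 and Cbx7 beside Apobec3 at -0.14 and -0.15. Cmpk2, which neighbours Rsad2, and Trim30d, which neighbours Trim30a, read below 5.87 on all arrays.

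Likeness of pattern, given as a description, was measured as the Euclidean distance over the 4 arrays between a gene's values centred on their own mean and the median centred profile of the effectors, which was 1.76, 0.31, -1.07 and -1.06 in the same order of arrays. Readings here are as deposited, dim ones included. The 8 nearest other genes were Plscr2 (0.12), Ddx58 (0.13), Iigp1 (0.19), Ddx60 (0.19), Gbp7 (0.26), Ifi205 (0.37), Phf11d (0.38) and Ifih1 (0.43). Of these, Plscr2, Iigp1, Ddx60, Ifi205 and Phf11d were above 5.87 only in mock-treated GFP cells and so passed the filter through that array alone, and the order of their other readings is one of dim values. Ddx58 and Ifih1 encode RNA sensors and Iigp1 and Gbp7 interferon-induced GTPases. Of the effectors, Rsad2 (0.63), Parp14 (0.65) and Xaf1 (0.77) lay nearest to their own median, and Trim30a (1.54), Rtp4 (1.80) and Apobec3 (1.89) farthest, the first pair with larger swings and Apobec3 with smaller. Ddx58 read 10.16, 8.63, 7.401 and 7.25, above 5.87 on all arrays.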

How the data were processed

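Total RNA of 4 samples, 1 per group by the labels' source names, was measured on Affymetrix Mouse Gene ST arrays. Per the submitters' processing notes the authors used Expression Console and RMA, and deposited log2 values; no version or build is named there. RMA is meant to equalise the arrays' intensity distributions, but the arrays still differed. Medians of the kept genes were 7.69, 7.60, 7.48 and 7.68 on the 4 arrays, in the order used above. Standard deviations over probe sets with 1 symbol were 2.30, 2.22, 2.16 and 2.28. A shift shared by many genes thus remained. That the deposited values are on base 2 was read from their range of 1.27 to 14.4.

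Of 35512 probe sets, 21789 had exactly 1 symbol in a platform annotation of 2016, 1621 had several and 12102 were unlisted; 21698 of the 21789 matched RefSeq (GRCm38.p6) by Entrez identifier. The probe set with the highest mean stood for a gene. Genes reaching the 50th percentile (5.87) on 1 array were kept. Precision is limited by the number of arrays. With 1 array per group no test was made. Alternatives were no filter, the 75th percentile (7.82), a 1.5-fold threshold, the probe set median, centred arrays, cyclic loess (limma 3.58.1) and dim readings raised to the filter.

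The effectors and lists were chosen with earlier results of these data known. The text names all effectors, Trp63, Mdm2, Krt5 and Krt14 as checks, the ISG15 conjugation genes, from each further list up to 6 genes (those called in both pairs of either effect first, then by largest difference), and the 8 nearest profiles. Parp1, Xiap, the eIF2 kinases, Ifnar1, Ifnar2, Jak1, Ifnb1 and the neighbours were named for their role or position, outside this rule, after values were seen, as were markers below the filter.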

Additional observations from a re-analysis of the deposited data

Results flagged for a closer look

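For 5 effectors the etoposide difference had opposite signs in GFP and p63 cells. It was -0.97 and 0.18 for Eif2ak2, -1.58 and 0.67 for Rtp4, -1.63 and 0.24 for Xaf1, -1.67 and 0.89 for Trim30a, and -2.37 and 0.0096 for Parp14, in GFP and p63 cells. Of these, the p63-cell values of Rtp4, Xaf1, Trim30a and Parp14 rest on readings below 5.87 and were 0.00 with those raised. With arrays centred the p63-cell value of Eif2ak2 was -0.02 and that of Parp14 -0.19, and that of Parp14 was -0.01 after cyclic loess, so the signs were then alike. Of the 10698 genes kept, the etoposide difference was below 0 for 6287 in GFP cells and above 0 for 6367 in p63 cells. How many genes met both was not counted, so the 5 effectors have no share over all genes beside them. Apobec3 had opposite signs in the p63 comparison, -0.68 under mock treatment and 0.18 under etoposide. With 1 array per condition these differences were not tested.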

How the results depend on the processing

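A 1.5-fold threshold called 8 effectors lower after etoposide in GFP cells (4 at 2-fold), where 1014 of the 10698 genes kept were lower. In p63 cells it called 2 (0 at 2-fold), Trim30a and Rtp4, both higher, where 1766 of the genes kept were higher. Both rest on p63 readings below 5.87 and stood at 0.00 with those raised. The filter at the 75th percentile left 6 effectors, whose median etoposide difference in GFP cells was -1.61, against -0.97 for all 9. Raising dim readings left 2 effectors lower with p63 in etoposide-treated cells (5 as deposited) and a median of -0.66 (-1.21 as deposited). Of all genes kept, 31 were then lower (55 as deposited), with a median of 0.02. The median difference of the etoposide differences, 1.15 as deposited, was 0.85 after centring and 0.90 after cyclic loess. Over all genes kept the median moved as well, from 0.20 to -0.10 and 0.04. The other 51 values of counts and medians under the alternatives kept their side of the threshold or, for counts, stayed within 1.5 times, and no called value changed sign. Of the values for single effectors, 224 kept their side, 11 reached the threshold and 5 fell short of it. Many of these outcomes were fixed in advance. The 2 filter settings leave a single effector's values as they were, and the probe set median alters only Apobec3. Most of the 11 arose under the 1.5-fold threshold, which lowers the line and leaves the values unchanged. The tally is therefore no measure of robustness. Readings below 5.87 limit what the p63 arrays can show for Rsad2, Rtp4, Xaf1, Trim30a and Parp14. No paired analysis was possible because each group holds 1 array.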
